A study of Mus musculus with 6 samples.

Results

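The genes described here are 10 markers of the blood vessels of the brain, 6 of endothelial cells (Cldn5, Flt1, Pecam1, Slc2a1, Abcb1a and Tek) and 4 of the mural cells around them (Vtn, Pdgfrb, Rgs5 and Kcnj8). They were taken by symbol from a table of 45470 usable gene names, and all 10 had enough counts to be tested. RNA sequencing was done on prefrontal cortex homogenate from mice of postnatal week 8, with 3 wild type libraries and 3 libraries of mice heterozygous for the 16p11.2 duplication. In people this copy number gain is associated with autism and with schizophrenia. The line was founded on a C57BL/6N:129Sv hybrid, backcrossing to the C57BL/6 strain over 10 generations followed, and no treatment is labelled. The comparison asks how the cortical transcriptome differs with the duplication. Sex, litter and batch are not in the labels, and since the labels do not say that libraries come from different animals, p-values reflect only how these libraries vary.

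Endothelial cells of brain capillaries form the blood-brain barrier: tight junctions close the gaps between them, and carriers and efflux pumps decide which molecules cross. Pericytes, the mural cells of capillaries, are held to the endothelium by PDGF signalling and are needed for the barrier to form and last. In a homogenate these cells are a small share of the tissue, and fewer cells of a type cannot be told apart from less RNA per cell.

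Libraries held 12988457 to 21872271 counts, the most in duplication replicate 1. Names and counts had slipped apart in the deposited table, and 6 of the 10 markers take their counts from another line than the one their name stands on. As deposited, Flt1, Slc2a1, Tek and Pdgfrb stood against lines with 0 counts, and after re-alignment the wild type libraries summed to 1133, 1399, 474 and 467 counts. The nearest step in the offset lay 118 lines from a marker, that of Flt1. Of genes in the duplicated segment 23 were tested, and their median level over the wild type mean was 1.51-fold, 2.03-fold and 1.52-fold in duplication replicates 1 to 3. Duplication replicate 2 thus stood above replicates 1 and 3, and the reason was not tested. Wild type replicate 2 stood apart from the other wild type libraries on the principal component that held 45.5% of variance, at 4.04 against -27.2 and -26.7, with the duplication libraries at 7.23 to 24.8. Neuronal markers were abundant (12 of 12 tested, 10360 to 11290 CPM summed in wild type and 10500 to 10940 CPM in duplication libraries), where CPM is counts scaled to library size. Ttr, the defining transcript of choroid plexus, had 0 to 8 counts per library.

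All 10 markers were detected in each library, so defining genes of both vascular cell types were present. Per kilobase of exon, Rgs5 had the highest level in wild type cortex at 23.7 ± 1.2 CPM per kb (mean ± SD, n = 3), followed by Vtn at 15.3 ± 1.2, Cldn5 at 12.5 ± 0.75, Slc2a1 at 9.78 ± 0.80 and Abcb1a at 4.39 ± 0.24. Each of these genes lay above the next without overlap between the wild type libraries. Then came Tek at 2.46 ± 0.25, Pdgfrb at 2.10 ± 0.17, Flt1 at 2.05 ± 0.24 and Pecam1 at 1.93 ± 0.26 CPM per kb. Of these, Tek, Pdgfrb and Flt1 each overlapped with the next in this order. Tek was nonetheless above Pdgfrb within each of the 3 wild type libraries, and its lowest value (2.204) was just above the highest of Pecam1 (2.202). Kcnj8 was lowest at 0.957 ± 0.257 CPM per kb. Exon length was the union over all annotated transcripts, which is 13504 bases for Flt1 and 1416 bases for Cldn5, so levels of genes with many transcript forms are understated.

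**Figure D1:**
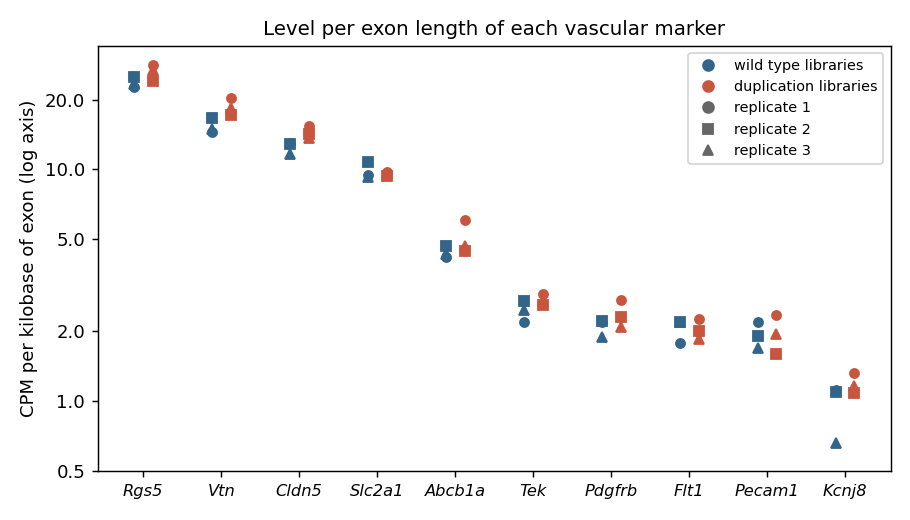
Level of the 10 vascular markers per kilobase of annotated exon (CPM per kb, log axis) in each wild type (blue) and duplication (red) library. The order runs from Rgs5 at 23.7 CPM per kb to Kcnj8 at 0.957 CPM per kb in wild type cortex, and Tek, Pdgfrb, Flt1 and Pecam1 lie together near 2 CPM per kb.

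No marker passed the test between genotypes (edgeR quasi-likelihood test, Benjamini-Hochberg adjusted over 15398 genes, threshold 0.05), with adjusted p of 0.175 for Vtn, the smallest, to 0.972 for Flt1. Of all genes tested, 0% were called, so the count of 0 among the markers matches that of the whole table. The 23 tested genes of the duplicated segment were not called either, so a count of 0 does not show that the markers are unchanged. DESeq2 called 0 of the 10, against 1.59% of its genes, and limma-voom called 0 of the 10, against 0%. At an unadjusted edgeR p under 0.05, 2 of the 10 were higher, Cldn5 and Vtn, where 7.05% of all genes were, and 0 were lower, where 12.2% were. The same 2 were the markers whose libraries did not overlap between genotypes, both higher with the duplication, which held for 11.7% of all genes in that direction. Fitted values were above 0 for 8 of the 10 markers, against 51.0% of all genes, and the median log2 fold change (duplication over wild type) was 0.09 for endothelial and 0.24 for mural markers, against 0.005 over all genes.

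The promoters of Cldn5 and Vtn, the markers with separate groups, and of Rgs5, whose level over the libraries was most like that of Vtn, are shown for the stretch upstream of the earliest annotated start (RefSeq, GRCm38.p6, plus strand, 5′ to 3′). Capitals mark matches, on either strand, to any of 5 motifs. Sites of ETS factors were searched as GGAAG. The core bound by SOX factors was searched as ACAAT. An E-box was taken as CANNTG, a GC box as GGGCGG, and the letters TATAAA stood for a TATA box. ETS and SOX factors are the regulators best known for endothelial genes.
Cldn5 (chr16:18776597-18776846): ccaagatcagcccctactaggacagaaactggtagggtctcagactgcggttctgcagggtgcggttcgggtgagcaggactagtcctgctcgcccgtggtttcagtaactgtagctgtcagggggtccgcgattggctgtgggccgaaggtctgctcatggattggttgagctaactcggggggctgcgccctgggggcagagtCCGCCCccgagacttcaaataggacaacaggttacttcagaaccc
Vtn (chr11:78498870-78499090): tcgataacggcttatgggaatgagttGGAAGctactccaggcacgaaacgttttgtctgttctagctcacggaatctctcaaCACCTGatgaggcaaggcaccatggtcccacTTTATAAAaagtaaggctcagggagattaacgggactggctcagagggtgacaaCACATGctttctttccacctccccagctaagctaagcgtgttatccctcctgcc
Rgs5 (chr1:169655251-169655500): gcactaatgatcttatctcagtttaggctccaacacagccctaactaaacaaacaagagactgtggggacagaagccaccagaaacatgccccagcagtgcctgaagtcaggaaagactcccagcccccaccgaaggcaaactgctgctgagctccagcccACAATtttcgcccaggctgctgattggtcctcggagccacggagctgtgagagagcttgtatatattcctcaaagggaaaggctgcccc
Each stretch holds a different set of these letters. Cldn5 has 1 GC box, Rgs5 has 1 SOX core, and Vtn has 1 GGAAG, 2 E-boxes and a TATA box found on both strands, which overlap. Of 32851 promoter windows of 250 bases, 64.1% hold GGAAG, 27.7% ACAAT, 66.2% CANNTG, 32.7% GGGCGG and 12.4% TATAAA. GC content was 59.6% for Cldn5, 53.6% for Rgs5 and 49.8% for Vtn, against a median of 52.4%. The table had entries for 8 of the 10 markers.

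Cldn5 encodes claudin-5, the main claudin of barrier tight junctions, and lies on chromosome 16 (mm10, 18776847 to 18778262, plus strand, ENSMUSG00000041378.2). Its level was 18.3, 18.3 and 16.5 CPM in wild type replicates 1 to 3 and 21.7, 20.1 and 19.4 CPM in duplication replicates 1 to 3. Every duplication library lay above every wild type library. The log2 fold change was 0.21 ± 0.09 (SE), a fold of 1.154, and it did not pass (adjusted p = 0.243). It was between 0.16 and 0.24 when any single library was left out.

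Pecam1 encodes CD31, an adhesion molecule of all endothelia, platelets and leukocytes (chromosome 11, 106654217 to 106750628, minus strand). Wild type replicates 1 to 3 were at 13.7, 11.9 and 10.5 CPM and duplication replicates at 14.6, 9.92 and 12.2 CPM. The groups overlapped fully, with the lowest and the highest value both in duplication libraries. A log2 fold change of 0.04 ± 0.16 did not pass (adjusted p = 0.921), and its 95% interval ran from -0.32 to 0.39.

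Slc2a1 encodes GLUT1, the carrier that brings glucose across the barrier (chromosome 4, 119108711 to 119137983, plus strand). Its level was 33.0, 37.5 and 32.4 CPM in wild type replicates and 34.3, 32.8 and 33.8 CPM in duplication replicates. It was the only marker whose highest value was in a wild type library, replicate 2. The log2 fold change of -0.03 ± 0.08 did not pass (adjusted p = 0.860), and its 95% interval of 0.867-fold to 1.11-fold was the narrowest of the 6 endothelial markers. A non-coding gene on the opposite strand, Gm12868, shares 105 exon bases with it, so some of its counts may belong to that gene if strand was not used in counting.

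Abcb1a encodes P-glycoprotein, the efflux pump that keeps many drugs out of the brain (chromosome 5, 8660077 to 8748575, plus strand). Wild type replicates were at 23.0, 25.5 and 23.7 CPM and duplication replicates at 33.1, 24.4 and 25.6 CPM. Duplication replicate 1 alone stood above the rest, and the other 2 duplication libraries lay within or next to the wild type range. Its log2 fold change was 0.21 ± 0.12 (adjusted p = 0.366), and 0.055 without duplication replicate 1 (adjusted p = 0.814). Gm42686, a transcript on the opposite strand, shares 553 exon bases with it, so its value is uncertain. Its close paralog Abcb1b was at 3.18 ± 0.44 CPM in wild type libraries (mean ± SD, n = 3) and at 4.09 ± 0.24 CPM in duplication ones, a log2 fold change of 0.36 ± 0.16 (adjusted p = 0.249) with groups that did not overlap. Reads shared between the paralogs make both values uncertain.

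Flt1 encodes VEGF receptor 1, which binds VEGF and limits its action on the main receptor, Kdr (chromosome 5, 147561604 to 147726011, minus strand). Its level was 23.9, 29.5 and 29.7 CPM in wild type replicates and 30.6, 27.1 and 24.9 CPM in duplication replicates. The groups covered nearly the same range, and the log2 fold change of -0.01 ± 0.11 did not pass (adjusted p = 0.972; 95% interval -0.26 to 0.24). Its sign changed when single libraries were left out or other scalings used. Kdr itself was at 10.3 ± 1.5 CPM in wild type libraries and at 10.5 ± 1.9 CPM in duplication ones, and their ligand Vegfa at 34.5 ± 3.9 and 30.6 ± 1.3 CPM (adjusted p = 0.95 and 0.328).

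Tek encodes TIE2, the angiopoietin receptor that keeps vessels quiescent (chromosome 4, 94739289 to 94874976, plus strand). Wild type replicates were at 10.4, 12.8 and 11.6 CPM and duplication replicates at 13.6, 12.3 and 12.8 CPM. The groups overlapped through wild type replicate 2, and the log2 fold change of 0.15 ± 0.11 did not pass (adjusted p = 0.453). It was 0.081 without wild type replicate 1 (adjusted p = 0.756) and 0.228 without wild type replicate 2 (adjusted p = 0.204). Its agonist Angpt1 had a log2 fold change of 0.15 ± 0.12 (adjusted p = 0.499) and its co-receptor Tie1 one of 0.07 ± 0.20 (adjusted p = 0.874). The context-dependent antagonist Angpt2 was too scarce to test, with 9, 7 and 3 counts in wild type replicates and 17, 9 and 10 in duplication replicates.

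**Figure D2:**
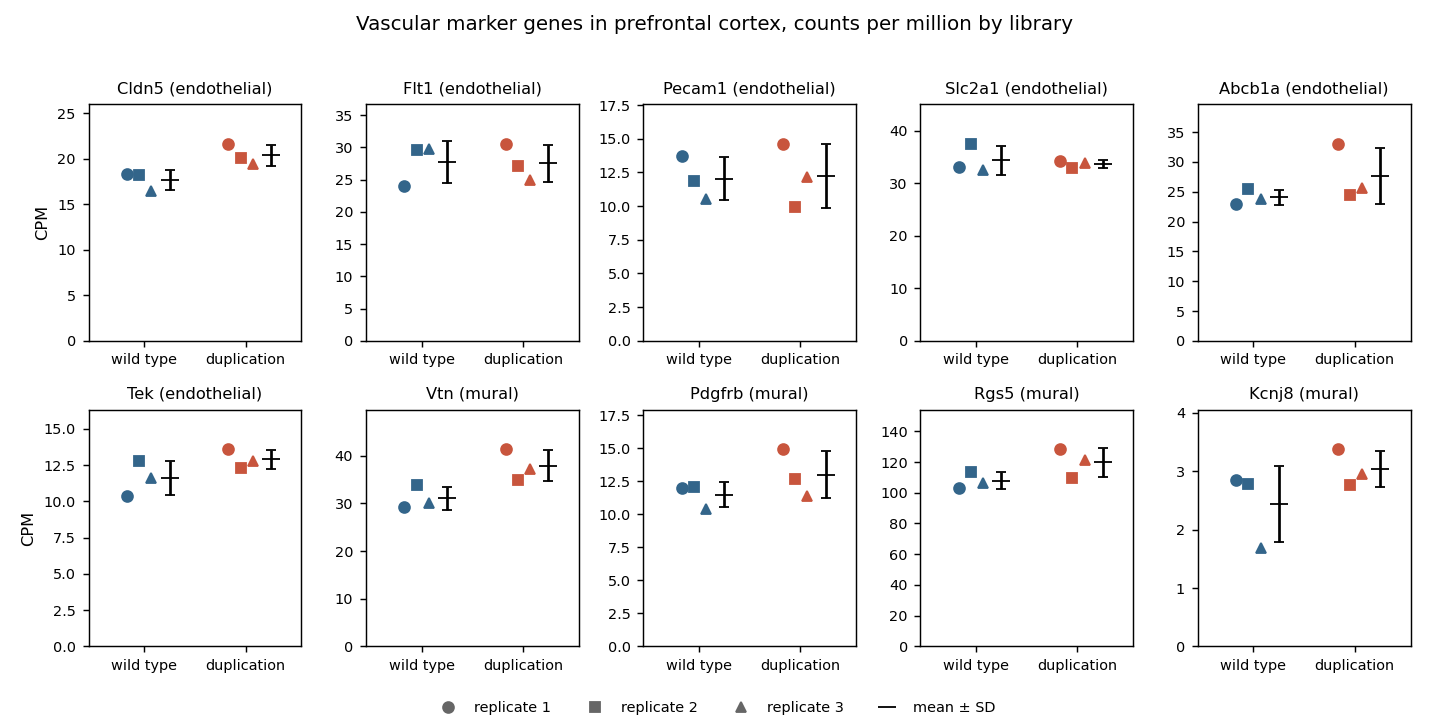
CPM of the 10 vascular markers in each library (points; shape gives the replicate number) with the mean ± SD of each genotype (n = 3), vertical axes from 0. Groups are separate for Cldn5 and Vtn, and duplication replicate 1 is the highest library for 9 of the 10 markers, all but Slc2a1.

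Vtn encodes vitronectin, a matrix protein that pericytes make and that endothelial integrins bind (chromosome 11, 78499091 to 78502324, plus strand). Its level was 29.3, 33.9 and 30.1 CPM in wild type replicates and 41.4, 35.0 and 37.3 CPM in duplication replicates. Every duplication library lay above every wild type library, the nearest pair being wild type replicate 2 and duplication replicate 2. Its log2 fold change of 0.28 ± 0.09, a fold of 1.22, did not pass (adjusted p = 0.175). Without wild type replicate 2 it was 0.35 and passed (adjusted p = 0.0285), in a fit that called 15.3% of all genes in either direction and 4.65% of all genes as higher. With each of the other libraries left out the value was 0.22 to 0.34 and did not pass.

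Pdgfrb encodes the receptor through which endothelial PDGF-B recruits pericytes (chromosome 18, 61045150 to 61085061, plus strand). Wild type replicates were at 11.97, 12.1 and 10.4 CPM and duplication replicates at 14.9, 12.7 and 11.4 CPM. The groups overlapped through duplication replicate 3, and the log2 fold change of 0.19 ± 0.13 did not pass (adjusted p = 0.433). It was 0.070 without duplication replicate 1 (adjusted p = 0.829) and 0.118 without wild type replicate 3 (adjusted p = 0.742). The ligand gene Pdgfb, which neurons express too, had a log2 fold change of -0.13 ± 0.09 (adjusted p = 0.453).

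Rgs5 encodes a regulator of G-protein signalling that marks brain pericytes and had the highest level per exon length of the 10 markers (chromosome 1, 169655501 to 169695813, plus strand). Its level was 103.1, 113.7 and 106.5 CPM in wild type replicates and 128.3, 109.5 and 121.4 CPM in duplication replicates. Wild type replicate 2 lay above duplication replicate 2, so the groups overlapped by that pair. The log2 fold change of 0.15 ± 0.07 did not pass (adjusted p = 0.298), and the 95% interval was 0.988-fold to 1.25-fold. Without duplication replicate 1 the log2 fold change was 0.101 (adjusted p = 0.638).

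Kcnj8 encodes Kir6.1, the pore of the vascular ATP-sensitive potassium channel, whose regulatory subunit is encoded by Abcc9 (chromosome 6, 142564837 to 142571614, minus strand). It had 36, 40 and 23 counts in wild type replicates and 74, 41 and 47 in duplication replicates, or 2.85, 2.78 and 1.68 CPM against 3.38, 2.77 and 2.96 CPM. Wild type replicate 3 alone was low, and its 23 counts have an exact Poisson 95% interval of 14.6 to 34.5 counts, for counting error only. The log2 fold change of 0.33 ± 0.22 did not pass (adjusted p = 0.433), with the widest 95% interval of the 10 markers, -0.17 to 0.82. Without wild type replicate 3 it was 0.118 (adjusted p = 0.818). Abcc9 was at 7.90 ± 0.78 CPM in wild type libraries and at 8.33 ± 0.18 CPM in duplication ones (log2 fold change 0.08 ± 0.11, adjusted p = 0.732).

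**Figure D3:**
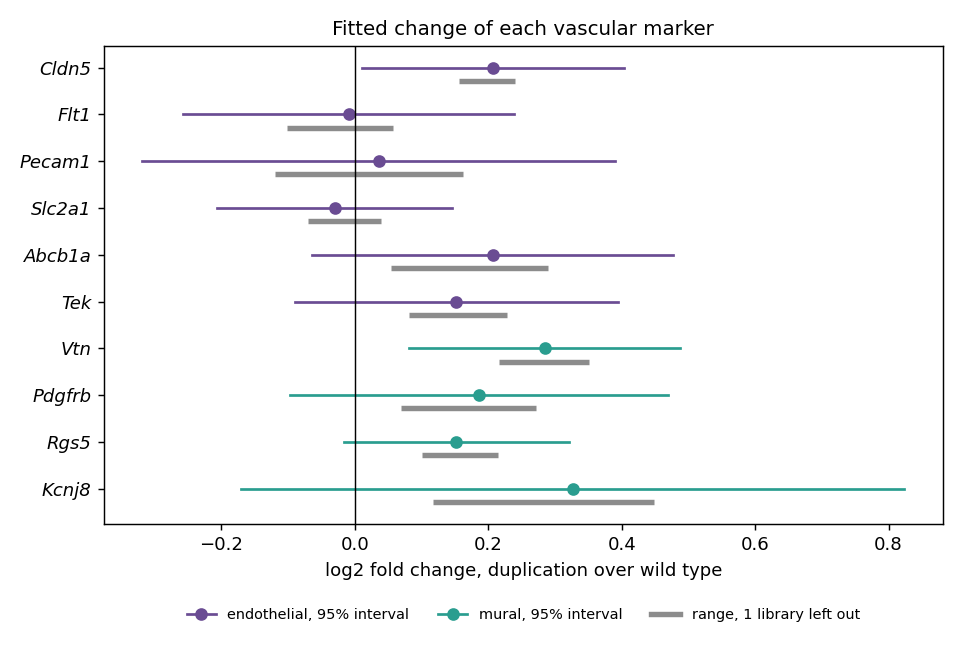
Fitted log2 fold change (duplication over wild type) of each marker with its 95% interval, not adjusted for the number of genes, and, in grey, the range of the value when 1 library is left out. The intervals of Cldn5 and Vtn lie above 0, those of the other 8 include 0, and no marker passed after adjustment.

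Duplication replicate 1 had the highest mean level of both groups of markers. It held the highest value of the 6 libraries for 9 of the 10 markers, where 20.8% of all genes were highest there. Around the mean over libraries, endothelial markers lay at -0.08, 0.04 and -0.09 (mean log2 CPM) in wild type replicates 1 to 3 and at 0.19, -0.06 and -0.007 in duplication replicates 1 to 3. Mural markers lay at -0.07, 0.007 and -0.28 and at 0.27, 0.02 and 0.07 in the same order. Without duplication replicate 1 the endothelial median log2 fold change was 0.006, and without duplication replicate 2 it was 0.17. The mural median was 0.16 without duplication replicate 1 and 0.13 without wild type replicate 3.

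Markers of the same cell type did not all vary together. Over the 6 libraries, which share genotype and depth differences, Pearson's r of log2 CPM had a median of 0.44 over the 15 endothelial pairs, from -0.09 for Flt1 with Pecam1 to 0.78 for Abcb1a with Tek. The 6 mural pairs had a median of 0.69, up to 0.96 for Vtn with Rgs5. The 24 pairs of an endothelial with a mural marker had a median of 0.54. Outside the markers, the 3 genes of at least 5 CPM most like the endothelial mean over 6 libraries were Tasp1, BC003331 and Rtn4 (r = 0.996, 0.995 and 0.993). Those most like the mural mean included RP23-37I24.1 and Sirt3 (each r = 0.99), out of 11258 candidates in each case. Picked as the highest of so many over 6 libraries, such r do not show that a gene is expressed in vascular cells.

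Lists of genes of other cell types had medians on both sides of 0. Fibroblast genes of the meninges and perivascular space had fitted values above 0 for 11 of 11 tested, their median being 0.74 on the log2 scale. In edgeR 0 passed, and 7 were higher at an unadjusted p under 0.05, where 7.05% of all genes were. DESeq2 called 3, against 1.59% of its genes. The summed level of the fibroblast genes was 88.1 to 95.3 CPM in wild type and 99.1 to 142.4 CPM in duplication libraries. The largest part of each sum came from Pdgfra, which is also counted among the oligodendrocyte genes below. Its mean level was 62.6 ± 2.5 CPM without and 65.2 ± 3.6 CPM with the duplication. Its log2 fold change, 0.06 ± 0.07, was the smallest of the 11. The sums thus do not stand for fibroblast RNA alone. The mean log2 level of the fibroblast genes was highest, at 0.92, in duplication replicate 1. The 3 called by DESeq2 were the proteoglycan gene Ogn, 1.57 ± 0.19 CPM in wild type libraries and 5.83 ± 2.74 CPM in duplication ones, the cation exporter gene Slc47a1 at 0.746 ± 0.263 and 3.01 ± 1.68 CPM, and the growth factor gene Igf2 at 5.16 ± 0.22 and 10.7 ± 4.2 CPM. Their groups did not overlap (DESeq2 adjusted p = 9.89e-05, 0.0116 and 0.0109; edgeR 0.163, 0.174 and 0.174). Of the defining collagen and matrix genes, Dcn was at 3.23 ± 1.11 CPM in wild type libraries and at 5.33 ± 2.11 CPM in duplication ones and Col1a1 at 3.72 ± 1.83 and 3.88 ± 1.49 CPM, with overlapping groups. Genes of arteriolar smooth muscle were scarce, with 7 of 10 tested, 0 called and 0 at an unadjusted p under 0.05, a summed level of 22.4 to 24.2 CPM in wild type and 21.8 to 30.1 CPM in duplication libraries, and a median of 0.10. Their contractile marker Acta2 was at 2.18 ± 0.57 and 2.497 ± 1.01 CPM.

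Transcripts of red blood cells summed to 55.3 to 100.9 CPM in wild type and 68.8 to 125.8 CPM in duplication libraries. They were the 5 tested of 8 blood cell genes, with 5 above 0, 0 called and 0 at an unadjusted p under 0.05. The white blood cell genes S100a8, S100a9 and Ly6c2 were too scarce to test, with 0 to 7 counts per library. Astrocyte markers, whose endfeet wrap the vessels, were above 0 for 12 of 12 with a median of 0.12, 0 called and 1 at an unadjusted p under 0.05, at 3945 to 4126 CPM summed in wild type and 4033 to 4343 CPM in duplication libraries. Genes of microglia and macrophages had 9 of 11 above 0, a median of 0.08 and 0 called. Mrc1, at 0.82 ± 0.20 (adjusted p = 0.174), was the 1 higher at an unadjusted p under 0.05. This list summed to 365.2 to 407.1 CPM in wild type and 412.7 to 427.6 CPM in duplication libraries, ranges that did not overlap. Oligodendrocyte genes lay the other way, with 10 of 12 below 0, a median of -0.31, 0 called and 0 at an unadjusted p under 0.05, at 1478 to 2483 CPM summed in wild type and 1334 to 1776 CPM in duplication libraries. Neuronal genes had 9 of 12 below 0 and a median of -0.09, with 0 called, 2 higher and 2 lower at an unadjusted p under 0.05. For this and the lists before it, the shares over all genes at that threshold were 7.05% higher and 12.2% lower. Nuclear-retained RNAs such as Malat1 had lower values with the duplication, with 9 of 10 below 0 and a median of -0.33. In edgeR 0 were called, and 7 were lower at an unadjusted p under 0.05, where 12.2% of all genes were. DESeq2 called 4, against 1.59% of its genes. Summed levels of these RNAs were 9409 to 11810 CPM in wild type against 7561 to 8534 CPM in duplication libraries, which did not overlap. The part of RNA of these other cell types, of nuclear RNA and of depth in the values of the vascular markers was not tested.

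**Figure D4:**
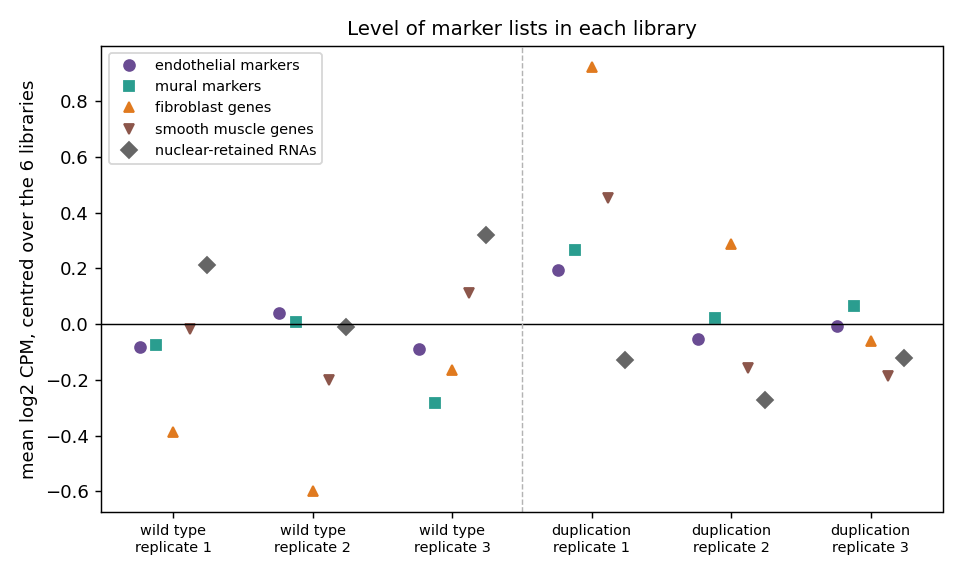
Mean log2 CPM of the endothelial and mural markers and of 3 other gene lists in each library, centred over the 6 libraries. Duplication replicate 1 holds the highest mean of the endothelial (0.19), mural (0.27), fibroblast (0.92) and smooth muscle (0.45) lists, while nuclear-retained RNAs are highest in wild type replicates 1 and 3.

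Other genes of the barrier and the vessel wall were likewise not called in edgeR with all libraries. Of 76 listed genes 73 were tested and 0 passed in edgeR or limma-voom, with 49 above 0 and a median of 0.08 on the log2 scale. An unadjusted p under 0.05 was found for 15, against 19.2% of all genes: 12 were higher, where 7.05% of all genes were, and 3 were lower, where 12.2% were. Groups did not overlap for 13, of which 10 were higher and 3 lower with the duplication, against 22.2% of all genes in either direction. DESeq2 called 1, against 1.59% of its genes: Slc6a20a, a proline carrier also made by meningeal fibroblasts. Without wild type replicate 2, edgeR called 4, in a fit that called 15.3% of all genes in either direction. Cd34, Eng and Foxc1 were called as higher, where 4.65% of all genes were, and Slc7a1 as lower.

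Junction genes had a median of 0.03 over 14 tested. The tight junction gene Ocln was at 0.33 ± 0.18 on the log2 scale (adjusted p = 0.337), and the vascular sialomucin Cd34, with 85.0 ± 9.0 CPM in wild type libraries and 104.8 ± 12.4 CPM in duplication ones, at 0.30 ± 0.10 (adjusted p = 0.185). Barrier transporters also had a median of 0.03, over 15 tested, with 10 above 0. The amino acid carriers Slc7a5 and Slc7a1, which many cell types express, had the smallest p and were on the low side at -0.21 ± 0.08 and -0.31 ± 0.13 (adjusted p = 0.221 and 0.232).

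VEGF and angiopoietin genes had a median of 0.01 over 14 tested and held values in both directions. Endoglin (Eng), a TGF-beta co-receptor of endothelium, was at 3.65, 3.82 and 3.44 CPM in wild type replicates and 6.11, 4.996 and 5.48 CPM in duplication replicates, groups that lie well apart. Its log2 fold change of 0.61 ± 0.14 did not pass (adjusted p = 0.173). The semaphorin receptor Nrp2, which neurons also express, was at -0.34 ± 0.10 (adjusted p = 0.174). Barrier Wnt genes and endothelial transcription factors had a median of 0.13 over 15 tested, with 9 above 0 and 6 below 0. The Wnt effector Lef1 was at 0.66 ± 0.23 from 47 counts in wild type and 97 in duplication libraries (adjusted p = 0.186). The Wnt target Apcdd1 was at 0.26 ± 0.11 (adjusted p = 0.244), and Axin2, of the same list, at -0.05 ± 0.09 (adjusted p = 0.797).

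The other pericyte genes had the highest median of these lists, 0.27, with 13 of 15 above 0 and 0 called in edgeR. At an unadjusted p under 0.05, 5 were higher, where 7.05% of all genes were. The smallest p were those of the transcription factors Tbx18 at 1.27 ± 0.32 and Foxc1 at 0.98 ± 0.27 (adjusted p = 0.174 for both), which summed to 48 and 67 counts over the wild type libraries. Both, like Slc6a20a at 1.001 ± 0.27 (adjusted p = 0.174), are made by meningeal fibroblasts as well as by mural cells, and Slc6a20a was named after its value was seen. Notch3, the receptor of mural cells, was at 0.12 ± 0.19 (adjusted p = 0.754).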

How the data were processed

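The authors trimmed reads with cutadapt, aligned them to mm10 with TopHat2 and counted them per gene with HTSeq, per the submitters' processing notes; libraries were stranded and depleted of ribosomal RNA, per the labels' protocols. The sources used here name no annotation, strand setting or tool version. The deposited values are raw counts, whole numbers that are not normalized, in 45807 lines under 45801 names. Each name was paired with the line of counts 0 to 6 lines further on, by offsets that step up at 6 places and were fixed from an earlier examination of these data; names within 25 lines of a step and 25 names turned into date numbers were left out. Unnamed lines held 0.909% to 0.954% of a library and stayed out of library sizes. All 274806 values of the per-library tables equalled the joint table, and no per-sample column was left unused.

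Genotypes were compared in R 4.3.3 with edgeR 4.0.16 (TMM factors, filterByExpr, quasi-likelihood F-test, Benjamini-Hochberg over all 15398 genes), tested on simulated data. The simulation gave all genes the same dispersion and held no outlying library, so it does not show how often a change would be found in these data. The SE is the log2 fold change over the root of F; log2 CPM uses a prior count of 2. DESeq2 1.42.0, limma 3.58.1 (voom), other scalings and filters, a replicate block and each library left out were alternatives. Positions and exon lengths are from GENCODE M21 (mm10). Named were all markers, 10 partner genes, and of each of 5 further vascular lists the 2 genes with the smallest p, and the 3 genes most like each cell type's mean, of which 1 is not reported here; genes of other cell types were named outside this rule, after their values were seen. Members and lists were chosen with earlier results of these data known. Without molecular identifiers, PCR copies are counted as if independent, so the Poisson interval covers counting error only; the fitted intervals include the spread between libraries.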

Additional observations from a re-analysis of the deposited data

How the results depend on the processing

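The count of called markers stayed at 0 with DESeq2, limma-voom, other scalings, other filters, the replicate block, names as deposited (which left 5 of the 10 tested) and 100 lines left out around each step, and was 0 to 1 with a library left out. The 1 was Vtn, at 0.351 without wild type replicate 2. With names as deposited, 4 of the markers kept the same counts. Abcb1a took another line, with 2508 instead of 981 wild type counts, so that setting could not check the markers whose lines moved. The endothelial median log2 fold change was 0.006 to 0.174 and the mural one 0.131 to 0.288 with a library left out, and 0.087 to 0.12 and 0.23 to 0.261 otherwise. Over all genes 0 were called, against 232 with DESeq2, 1016 without a filter on low counts and 7 with the replicate block, and 0 to 2406 with a library left out, the highest without wild type replicate 2. Of other vascular genes 1 was called with DESeq2, 5 without a filter (Cd34, Eng, Foxc1, Tbx18 and Slc6a20a) and 0 to 4 with a library left out. Signs turned for values near 0 only: Flt1 was at 0.018 with upper-quartile factors, 0.006 with library size only, 0.002 without a filter, and -0.101 to 0.057 with a library left out, above 0 without wild type replicate 2 or 3 or duplication replicate 2 or 3. With a library left out Slc2a1 was at -0.07 to 0.039, above 0 without wild type replicate 2, and Pecam1 at -0.12 to 0.162, below 0 without wild type replicate 3 or duplication replicate 1. The cause of these changes was not tested. Same-numbered libraries deviated together with r of 0.102, 0.063 and 0.311. Those of different number had r from -0.282 to 0.157, the latter for duplication replicate 1 with wild type replicate 2. With 3 libraries per genotype these values cannot decide whether the numbers pair the libraries. Kcnj8 rested on 23 to 74 counts per library, and Angpt2 was among the listed genes too scarce to test.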
